A study of Mus musculus with 3 samples.

Results

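Small RNA from fully grown mouse oocytes was examined here in a pair of sequencing libraries that were cut from the same kind of gel as neighbouring size windows. They are the libraries labelled 19-24 nt and 24-30 nt, chosen by those labels and called the shorter and the longer window, and make up 2 of the 3 libraries of the series. Both came from total RNA of oocytes of mice given 5 IU of PMSG, a hormone preparation given to stimulate ovarian follicles, 48 hours before they were killed. They share this treatment, the cell type and the Trizol extraction, and have no untreated or mutant group. They differ in the window labelled and in the sequencing lane, 8 and 7 per the file headers, and what the window and the lane each bring cannot be told apart. Strain, age and the number of mice or oocytes pooled are not given in the sources used here. Each window is 1 library, and every interval below is a 95% counting interval that says nothing of how a repeat of the experiment would vary.

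The oocyte is known for holding several small RNA pathways at once. MicroRNAs are cut from hairpins by Dicer, mostly to lengths near the middle of the shorter window. Endogenous siRNAs are also Dicer products, made from long double-stranded RNA such as paired gene and pseudogene transcripts. piRNAs are longer, do not need Dicer, mostly start with U, and can be made in pairs by slicing, which leaves partners on opposite strands overlapping at their 5′ ends and an A at the tenth base of the partner. Fragments of tRNA, rRNA, snoRNA and Y RNA, which serve in translation and RNA processing, fall in the same size range.

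The sequences that carry the comparison are shown first. These are RefSeq mature microRNAs (GRCm38.p6), chosen as the most abundant hairpins of each library, with the seed, bases 2 to 8, in capitals. The first 5 led the 19-24 nt library and the last 3 led the longer window. miR-322 and miR-503 begin their seeds alike and lie in one cluster on chromosome X with miR-351.
miR-322-5p, chrX:53054306-53054327, minus strand: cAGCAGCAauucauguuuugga
miR-22-3p, chr11:75463772-75463793, plus strand: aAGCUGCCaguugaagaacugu
miR-29a-3p, chr6:31062673-31062694, minus strand: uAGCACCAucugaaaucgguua
miR-503-5p, chrX:53054027-53054049, minus strand: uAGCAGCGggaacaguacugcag
miR-21a-5p, chr11:86584120-86584141, minus strand: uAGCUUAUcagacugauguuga
miR-541-5p, chr12:109742422-109742446, plus strand: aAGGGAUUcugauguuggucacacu
miR-351-5p, chrX:53053315-53053338, minus strand: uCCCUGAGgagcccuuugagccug
let-7b-5p, chr15:85707325-85707346, plus strand: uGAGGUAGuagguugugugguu

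The next reads show microRNA ends that do not follow the hairpin. Each is the whole 26 nt read, with n at base 21, where base calling failed in both libraries, and with capitals at bases that differ from the genome-encoded hairpin. Each was the most frequent tailed read of its hairpin, and the hairpins were picked after their values were seen.
let-7b-5p with U tail: tgaggtagtaggttgtgtggnttTTT
miR-351-5p with U tail: tccctgaggagccctttgagnctTTT
miR-20a-5p with A tail: taaagtgcttatagtgcaggnagAAA
miR-30e-5p with mixed tail: tgtaaacatccttgactggangctTA

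The last set shows the first 20 bases of reads outside microRNA. The Snord2 and Rny3 reads are the commonest fragment of a snoRNA and of a Y RNA. The Cwc22 and Gm7162 reads are the leading short RNAs of 2 siRNA loci, with the first base in capitals. The next pair, on opposite strands of D10Wsu102e, overlaps at the 5′ ends by the 10 bases in capitals, and the repeat pair does the same at 56 places. The read ending in CCA is 18 nt long in full.
Snord2, chr16:23108989-23109008, plus strand: ctgaaatgaagagaatactc
Rny3, chr6:47781624-47781643, plus strand: ggttggtccgagagtagtgg
Cwc22 sense, chr2:77895894-77895913, minus strand: Tgtttgtaaattttgaagat
Cwc22 antisense, chr2:77895916-77895935, plus strand: Tactttatacaagagttctc
Gm7162 sense, chr17:12819990-12820009, minus strand: Tgttgccttcgcagatgctg
D10Wsu102e antisense, chr10:83469484-83469503, minus strand: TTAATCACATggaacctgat
D10Wsu102e sense, chr10:83469494-83469513, plus strand: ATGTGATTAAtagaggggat
repeat pair, read 1: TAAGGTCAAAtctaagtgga
repeat pair, read 2: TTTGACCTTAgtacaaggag
Gm15280, chrX:31347753-31347770, minus strand: atcccggacgagcccCCA

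The 19-24 nt library held 764539 reads and the longer window 1484509 reads, each 26 nt long. After the 3′ linker, empty reads and low-complexity reads were taken off, 681839 and 1423623 reads were usable. The linker could be seen only where the insert was at most 22 nt long, and 40.4% of usable reads of the 19-24 nt library and 0.776% of those of the longer window had such an insert. The first 20 nt matched a GENCODE M21 transcript (GRCm38) on either strand for 313764 reads of the 19-24 nt library, 46.0% of its usable reads. In the longer window 343612 reads matched, 24.1% of the usable reads. Of the unmatched reads, 2.16% and 22.9% carried the A box, a conserved motif near the 5′ end of tRNA genes, and 1 unmatched sequence alone took 10.2% of the usable reads of the 24-30 nt library. The transcripts used here hold no nuclear tRNA and no 5.8S or 28S rRNA genes, so the shares below understate both classes.

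MicroRNA filled one library and was a small part of the other. It took 78.6% of matched reads (78.4 to 78.7) in the 19-24 nt library against 6.69% (6.61 to 6.78) in the longer window, a ratio of 11.7. tRNA ran the other way, at 0.775% against 26.4%. Most of the latter came by a rule, chosen after the reads were seen, that set reads with an A box outside small RNA genes with tRNA, and without it tRNA was 0.650% against 6.21%. rRNA followed it, with 2.35% and 6.29%, and so did snRNA and snoRNA, with 0.290% and 3.38%. Reads on the sense strand of coding genes took 6.27% and 15.4%, and reads antisense to them 3.69% and 10.4%. In these counts, which spread a read over its places, every class other than microRNA was lower in the 19-24 nt library when scaled to all matched reads.

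Once microRNA, tRNA and rRNA reads were left out, the remaining classes lay much closer together. This left 56733 reads, 18.1% of the matched reads, in the 19-24 nt library and 206770 reads, 60.2%, in the longer window. Coding sense reads were now 34.2% (33.9 to 34.6) against 25.5% (25.3 to 25.7), a ratio of 1.34 that was 0.406 on the scale of all matched reads. Coding antisense reads were 20% (19.7 to 20.3) against 17.05% (16.9 to 17.2), a ratio of 1.17 that was 0.356 on that scale. Pseudogene antisense reads were 7.30% against 12.9%, a ratio of 0.566. That direction was lost with uniquely placed reads, at 0.983 (0.917 to 1.05). It turned with 1 class per read, at 1.32, and with distinct sequences counted once per insert length, at 1.36. Sense reads of pseudogenes, 6.63% and 6.64%, overlapped within counting error, and 1 class per read gave 1.31. Uniquely placed ones were 6.60% against 1.58%, a ratio of 4.18 (3.81 to 4.59). Of these 1229 reads in the 19-24 nt library, 283 were 1 sequence of 18 nt, that of Gm15280 shown above. Sense reads of long non-coding genes, with 18.1% and 18.6%, differed by a ratio of 0.972. The ratio of snRNA and snoRNA reads was 0.285, after 0.0857 on the scale of all matched reads, and 0.0846 among uniquely placed reads.

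The order of the coding classes also depended on how reads were counted. Without the A box rule, 1 place antisense to Yipf1 with 143 and 65755 reads returned to coding antisense, whose ratio became 0.540. Counting each distinct sequence once per insert length put coding sense at 0.817 and coding antisense at 1.39, and 1 class per read put them at 0.968 and 2.35. A sequence seen at several insert lengths thus counted more than once. Outside microRNA, tRNA and rRNA, 29050 and 38298 sequences gave 35065 and 38584 such entries. The rise was larger in the 19-24 nt library, and its part in the ratios was not tested.

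**Figure D1:**
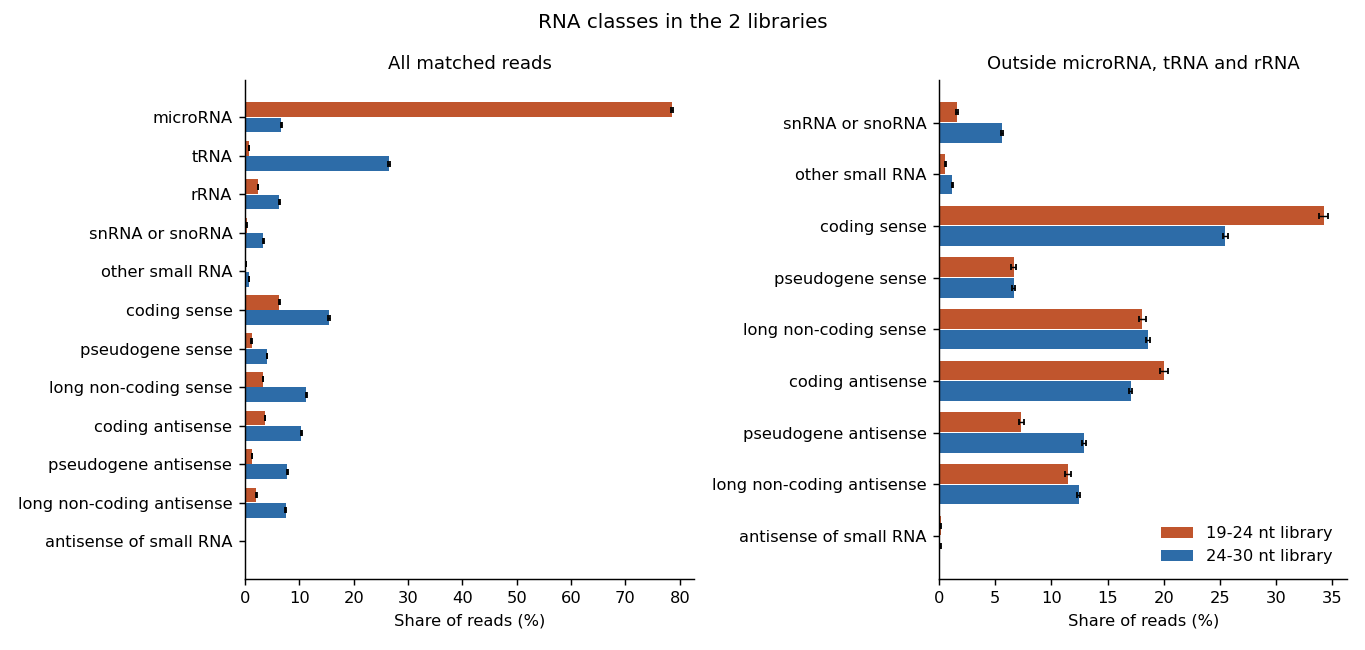
Share of reads by RNA class in the 19-24 nt library (orange) and the 24-30 nt library (blue), with 95% Wilson intervals as thin black bars, for all matched reads on the left and after leaving out microRNA, tRNA and rRNA on the right. The microRNA bars, 78.6% and 6.69%, set the scale on the left, and the coding sense bars change order between the panels.

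Among microRNAs, nearly every hairpin was higher in the 19-24 nt library, and Mir541 and Mir351 were the most abundant in the longer window. Of 168 hairpins with at least 100 reads over both libraries, 152 (90.5%) were over 2-fold higher in the 19-24 nt library and 7 (4.17%) over 2-fold higher in the longer window, scaled to matched reads. The median ratio was 35.8. Scaled to microRNA reads instead, the median was 3.05, with 99 (58.9%) and 29 (17.3%) hairpins past 2-fold.

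Mir322, a member of the miR-15/16 seed family, led the 19-24 nt library at 90696 RPM, which is reads scaled to 1000000 matched reads, against 760 RPM, a ratio of 119 (106 to 135). Mir22 had 58225 RPM against 434 RPM, a ratio of 134 (114 to 159). Mir29a followed with 18823 RPM against 178 RPM. Mir21a, abundant in many tissues, had 17163 RPM against 198 RPM. Mir503 stood lower in ratio, with 17354 RPM against 515 RPM, or 33.7 (29.0 to 39.4). These 5 were therefore separated by more than an order of magnitude between the windows.

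Mir541, from the imprinted Dlk1-Dio3 cluster, was the reverse. It had 2075 RPM in the 19-24 nt library and 11103 RPM in the longer window, a ratio of 0.187 (0.172 to 0.203), and its mature form is annotated at 25 nt. Mir351, annotated at 24 nt, was nearly even, with 12127 RPM and 10969 RPM, a ratio of 1.11 (1.06 to 1.16). This pair held 16.6% and 16.4% of the microRNA reads of the 24-30 nt library, against 0.264% and 1.54% of those of the shorter window. Mirlet7b, of the let-7 family that is known for developmental timing, came next in the 24-30 nt library. It had 3585 RPM there beside 12952 RPM, a ratio of 3.61, or 0.308 per microRNA read.

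The lowest ratios of all belonged to hairpin models with no RefSeq mature entry under their symbol. Gm44456 had 11.7 RPM against 337 RPM, and its reads also had tRNA places. The identical copies Gm23935, Gm24245 and Gm24270 each had 160 RPM against 1673 RPM, a ratio of 0.0956. Gm25732, with 44.6 RPM and 419 RPM, was similar at 0.106. At the other end Mir205 had 553 reads against 2, a ratio of 303 (83.4 to 2507). Mir98, a let-7 relative, had 642 reads against 4, and Mir547, Mir30b and Mir99a followed. Before the floor Mir30b, with 411 reads against 1, had a ratio of 450 (80.3 to 17821).

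Annotated length ordered these ratios. Of 150 mature arms with at least 100 reads, the 22 arms of 21 nt or shorter had a median ratio of 51.7 and the 86 arms of 22 nt one of 38.3. The 36 arms of 23 nt had a median of 15.5, and the 6 arms of 24 nt or longer one of 0.812. Those 6 held 3.19% of arm reads of the 19-24 nt library and 44.6% of those of the longer window. Length did not fix the ratio of each arm, since miR-125a-5p, also annotated at 24 nt and with the same seed as miR-351-5p, had a ratio of 102. In the 19-24 nt library its reads were 42.2% 22 nt and 45.0% 24 nt long, against 9.71% and 33.0% for miR-351-5p, over reads that could be sized.

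**Figure D2:**
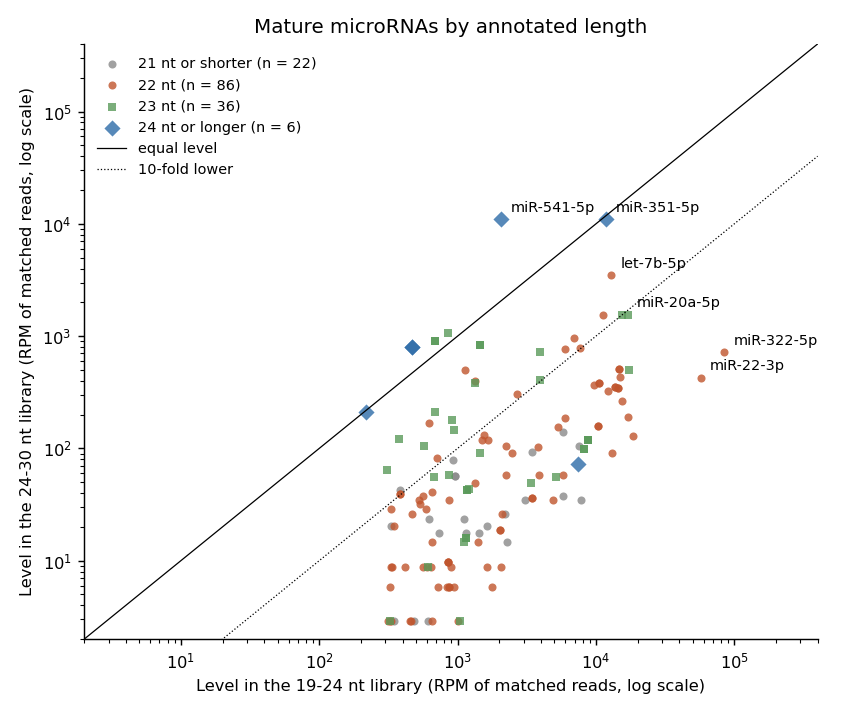
Level of each mature microRNA arm with at least 100 reads in the 19-24 nt library (horizontal) against the 24-30 nt library (vertical), in RPM of matched reads on log axes, with arms at 0 drawn at 1 read. Symbols give the annotated length, and most of the 6 arms of 24 nt or longer (blue diamonds) lie near or above the line of equal level while most others lie below the dotted 10-fold line.

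Families followed their leading members. The let-7 family (12 hairpins measured) had a summed ratio of 15.5 (14.9 to 16.2) and the miR-17 to miR-92 clusters, known for cell growth (11 hairpins), 11.4 (10.7 to 12.2). Ratios were higher for miR-15/16 (80.8), miR-29 (94.7) and miR-200, an epithelial family (98.1). They were lower for miR-30 (8.94) and for the Dlk1-Dio3 hairpins, at 1.79 (1.72 to 1.85). Per microRNA read the ratios were 1.32 for let-7, 0.971 (0.909 to 1.04) for miR-17 to miR-92 and 0.761 for miR-30. On that scale miR-15/16 had 6.88, miR-29 8.07, miR-200 8.36 and Dlk1-Dio3 0.152. Hairpins counted here as measured had at least 20 reads over both libraries. Of 29 Dlk1-Dio3 hairpins 28 were over 2-fold higher in the 19-24 nt library. The other 1 was Mir541, with 3815 of the 4352 reads of the group in the longer window. The median of the group was 19.7, beside 19.0 over all 253 hairpins at that minimum. Per microRNA read 13 and 6 of the 29 were past 2-fold. The shares of all hairpins past 2-fold were taken only at 100 reads. They were 90.5% higher in the 19-24 nt library per matched read, and 58.9% and 17.3% per microRNA read.

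MicroRNA reads in the 24-30 nt library often carried U and A that the hairpin does not encode. A read was called tailed where bases 24 to 26 were all U or A, at least 2 of them differed from the transcript, and no linker began there, so its insert was at least 26 nt long. Among uniquely placed microRNA reads other than Mir541 and Mir351, 2748 of 8384 reads (32.8%, 31.8 to 33.8) were tailed in the 24-30 nt library against 1499 of 148550 (1.01%, 0.960 to 1.06) in the shorter window. The same 3 bases were C or G, with at least 2 off the template, in 2.35% of reads of the longer window and 2.72% of the shorter. Between these 2 kinds of end the excess was in U and A. Reads that met neither template, linker nor the tail rule, C or G ends among them, made up 50.05% and 34.35%. Their ends were not sorted further. With Mir541 and Mir351 included the share in the 24-30 nt library was 19.2%.

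Other RNA classes of the 24-30 nt library had lower shares. The share was 0.0652% of tRNA reads, 0.179% of snRNA and snoRNA reads and 0.262% of rRNA reads. Of the 84398 tRNA reads, 80.2% met neither template, linker nor the tail rule. Most of the 84398 were 1 A box sequence placed antisense to Yipf1, with 65755 reads in that library. Its ends were compared with that place, so the tRNA share is no measure of tailing on tRNA. Reads of coding, pseudogene and long non-coding genes, pooled over both strands, had 1.06% in the 24-30 nt library and 0.704% in the shorter window. Taken apart they ran from 0.836% (coding sense) to 1.84% (coding antisense) in the longer window, and reads antisense to small RNA genes had 5.06% of 158. The window is labelled for RNA longer than most annotated mature microRNAs. It still held shorter ones, as 45.8% of its 1455 sized microRNA reads were 22 nt long, with 91.2% not sizable. The part of the window in the tailed share was not tested.

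Tails differed between hairpins. Of 23 hairpins with at least 100 uniquely placed reads in both libraries, 22 had a higher share in the 24-30 nt library, with a median of 25.6% against 0.554%. The limit set by insert length holds for these shares too. Mir127 was highest at 73.2% (64.3 to 80.5) of 112 reads, and Mir134 had 71.7%. Mirlet7b had 62.8% (60.0 to 65.5) of 1187 reads, beside 9.76% in the 19-24 nt library, the highest of the 23 there. Mir210, which responds to low oxygen, had 51.1% and Mir503 48.8%.

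Tails held both U and A. In Mirlet7b 54.0% of tails read UUU in the 24-30 nt library, as in the let-7b read shown above. In Mir20a 37.4% read AAA, and its template holds U at 2 of the 3 bases, so an end of UUU could not be called there. Over all hairpins but Mir541 and Mir351, U made up 58.0% of the tail bases in the 24-30 nt library and 85.7% in the shorter window. The template limits which ends can be called and the hairpins differ in weight between the libraries, and the part of either in these shares was not tested.

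Several hairpins had few tailed reads in the 24-30 nt library. Mir541 had 0.551% tailed reads and 69.6% that followed its hairpin to base 26. That base is C both in the hairpin and at the start of the linker, so inserts of 25 nt and longer ones cannot be told apart there. Mir451a, whose precursor is cut by Ago2 in place of Dicer and then trimmed, had 0 tailed reads of 123, which allows up to 3.03%, and 76.4% that followed its hairpin to base 26. In the 19-24 nt library 90.1% of its reads ran into linker by base 26. Mir22 had 1.39% tailed reads, and 87.5% of its reads there ran into linker, so their inserts ended before base 26. Mir322 had 4.31% against 0.0820% in the shorter window, and 69.4% of its reads in the longer one ran into linker.

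**Figure D3:**
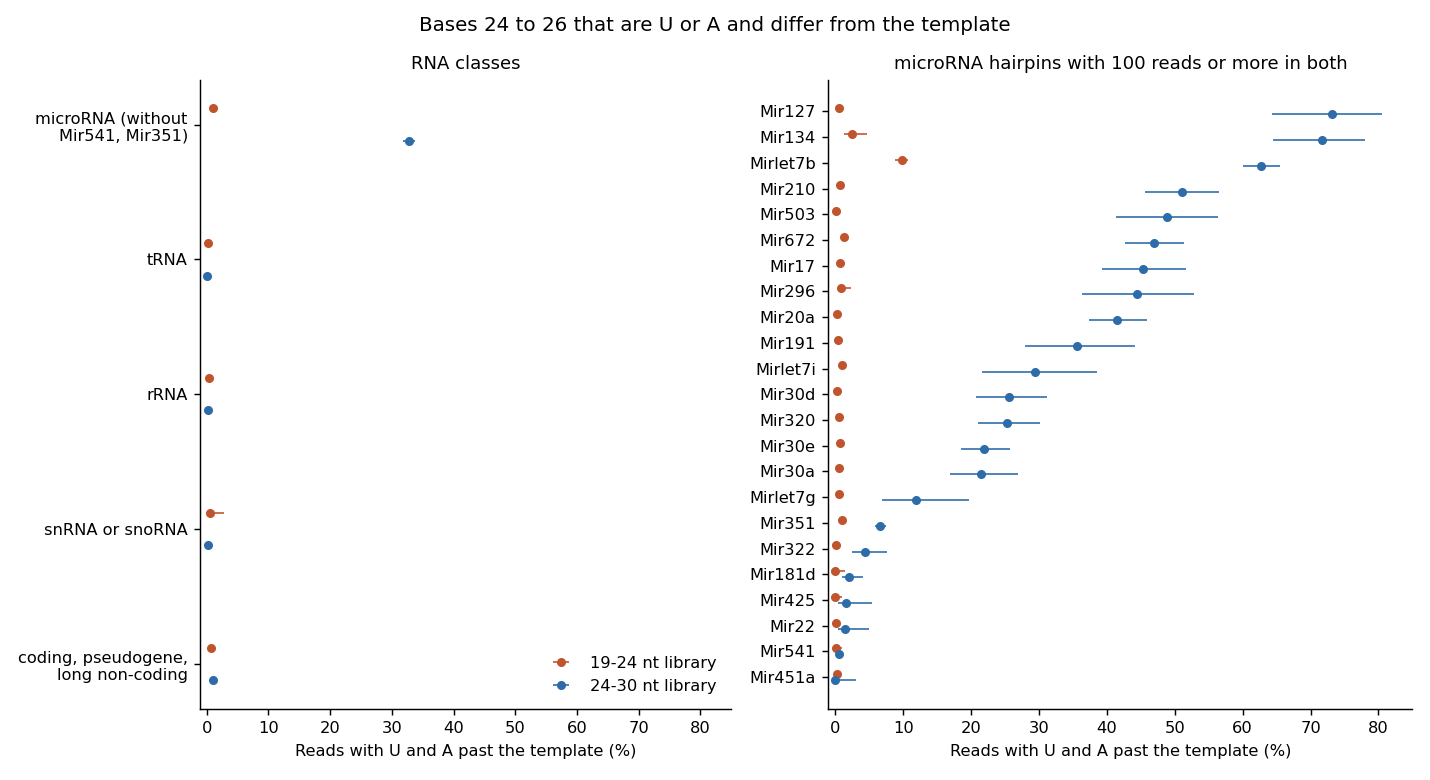
Share of uniquely placed reads whose bases 24 to 26 are U or A and differ from the template, with 95% Wilson intervals, in the 19-24 nt library (orange) and the 24-30 nt library (blue), for RNA classes on the left and for the 23 hairpins with at least 100 reads in both libraries on the right. The blue microRNA point stands at 32.8% while the other classes drawn lie at or below 1.06%, and the blue hairpin points run from 0 to 73.2%. The blue tRNA point rests mostly on 1 A box sequence placed antisense to Yipf1.

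Many small structural RNA genes, C/D box snoRNAs among them, were higher in the 24-30 nt library, and several were read mostly from 1 start. Among 67 small RNA genes with at least 50 reads, 8 (11.9%) were over 2-fold higher in the 19-24 nt library and 49 (73.1%) over 2-fold higher in the longer window, now scaled to reads outside microRNA, tRNA and rRNA. Over all 963 gene features at that minimum, each a gene on 1 strand, 13.1% and 53.2% were. C/D box snoRNAs, which guide methylation of rRNA, had 121 reads against 5395, a ratio of 0.0818 (0.0678 to 0.0980). Of 53 measured at 10 reads or more, 35 were over 2-fold higher in the 24-30 nt library and 1 in the shorter window. Over all features at 10 reads 28% and 20.6% were. H/ACA snoRNAs, which guide pseudouridylation, had 31.8 reads against 98.8, a ratio of 1.18 (0.762 to 1.77) that does not separate the libraries.

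Snord2, inside an intron of Eif4a2, gave 1 read against 1836, and 82.0% of the latter began at base 37 of its 69. Snord85 gave 1 read against 551, of which 77.3% began at base 42 of 73. Gm23262 gave 2 reads against 750, Gm25789 2 against 489, and Gm25855 1 against 411. Over all snoRNAs 61.2% of reads of the 24-30 nt library and 28.9% of those of the shorter window lay in the 3′-terminal portion of the gene when each gene was divided in 3. The middle portion held 11.8% and 48.0%. In the shorter window all 103 reads of Mir1839 and all 81 of Mir3068 lay there, out of 817.9 weighted reads. These are a scaRNA and a snoRNA gene that carry microRNA names, and the shares without them were not taken.

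These snoRNA reads also counted toward the genes around them. Eif4a2, a translation initiation helicase, had 7 sense reads against 1846, and 99.7% of the latter lay in a small RNA gene. For Eif4g2 this was 98.0% of 555 reads, for Rack1 98.3% of 233 and for Gas5, a snoRNA host with little coding capacity, 99.7% of 784. The low ratios of these 4 hosts therefore repeat those of their snoRNAs. Rpl5, a ribosomal protein gene, had 0.991 weighted reads against 124, of which only 45.2% lay in a small RNA gene.

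Y RNAs, small partners of the Ro protein, were read mostly from their 5′ end in both windows. Rny3 had 132 reads against 1113, a ratio of 0.432 (0.358 to 0.518), with 89.4% and 94.8% of reads starting at its first base. Rny1 had 10.4 weighted reads against 493, a ratio of 0.0770 (0.0374 to 0.141), with 76.8% and 61.7% starting at its first base. In the longer window 20.7% of Rny1 reads lay in the 3′-terminal portion. The ratio intervals of Rny3 and Rny1 do not overlap. Rn7s1 and Rn7s2, copies of the 7SL RNA of the signal recognition particle, had a ratio of 1.08 (0.646 to 1.73), and Rn7sk, Rn7s6, Vaultrc5, Rmrp and Rpph1 had intervals that include 1. A separate long non-coding model also named Rmrp had 9 reads against 490, and 96.7% of the latter were 1 sequence. Over all 9 genes of this kind 0 were over 2-fold higher in the 19-24 nt library and 2 in the longer window. Of all features at 10 reads 20.6% and 28% were.

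Mitochondrial tRNAs, the only tRNA genes whose read positions were counted, were read from different parts. In mt-Ts2, a serine tRNA and the most abundant, 83.5% of 960 reads and 95.9% of 3145 reads began at the first base. With mt-Ts2 included, reads starting within 3 nt of the 5′ end made up 57.4% of 1630 weighted reads of the 19-24 nt library and 45.6% of 11340 of the longer window. Without it the direction turned, at 10.7% (8.56 to 13.2) of 669.5 reads and 25.7% (24.7 to 26.6) of 8194.5. In mt-Te, mt-Ta and mt-Tg, the tRNAs of glutamate, alanine and glycine, 74.4%, 95.6% and 75.2% of reads of the longer window lay in the 3′-terminal portion.

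Short inserts that end in CCA, the triplet added to the 3′ end of tRNA, were a feature of the 19-24 nt library. Of its inserts of 18 or 19 nt, 6.14% (5.92 to 6.36) ended so, against 1.83% (1.31 to 2.55) of 1856 such inserts in the 24-30 nt library. A few gave single genes high ratios. All 283 reads of the pseudogene Gm15280 in the 19-24 nt library were the 18 nt sequence shown above, against 1.33 weighted reads. Of 195 reads antisense to Fgg, a fibrinogen chain gene, 96.4% were of 18 or 19 nt and ended in CCA, against 2 reads of the longer window.

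Among the 963 gene features with at least 50 reads, 126 (13.1%) were over 2-fold higher in the 19-24 nt library and 512 (53.2%) over 2-fold higher in the longer window. Many of these features share the same repeat reads and are not independent. Uniquely placed reads alone gave 32 and 106 of 156 features. Counting each distinct sequence once per insert length turned the balance, to 66 and 18 of 180, in a count that multiplied sequences more in the 19-24 nt library. Pseudogene antisense features were uneven in the weighted counts, with 7 (7.22%) and 83 (85.6%) of 97.

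Known sources of siRNA stood among the genes highest in the 19-24 nt library. A list of 13 genes known as siRNA sources in mouse oocytes gave 9 sense features with at least 10 reads. Of these 9 were over 2-fold higher in the 19-24 nt library, and of 7 antisense features 7 were. Over all features at that minimum 20.6% were. The list draws on work on oocyte libraries of this kind and is not independent evidence of the direction. Summed sense reads were 1444 against 48.7, a ratio of 108 (81.3 to 147). Summed antisense reads were 920 against 13.5, a ratio of 249 (146 to 464).

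Cwc22, a splicing factor gene, had 578 sense reads against 11.1 and 460 antisense reads against 5, ratios of 189 (105 to 380) and 335 (143 to 1037). Its leading sense read, shown above, held 21.6% of its sense reads, spread over 64 distinct sequences. C86187, a long non-coding gene, had 257 sense reads against 7. Both strands were thus read at Cwc22 at like levels.

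Optn, an autophagy receptor gene, had 135 sense reads against 5 and 66 antisense reads against 0, the latter at least 80.2-fold higher in the 19-24 nt library at a floor of 3 reads per library. Pdzd11 had 55 sense reads against 0, at least 66.8-fold higher, and 90 antisense reads against 3. Its head-to-head neighbour Kif4, a chromosome-associated kinesin gene, had 94 sense reads against 5 and 56 antisense reads against 0. Each of these genes was read from both strands in the 19-24 nt library. Sense reads of Pdzd11 were near in number to antisense reads of Kif4, and the reverse, and how many were the same reads was not counted. Any shared read entered both the sense and the antisense sum of the list.

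Trim71, a regulator of early development, had 69 reads on each strand, against 5 and 2. Ppp4r1, a phosphatase regulator, had 124 sense reads against 5.17 and 19 antisense reads against 0.5. Oog4, an oocyte gene, had 101 sense reads against 6.20. Dynll1, a dynein light chain gene, had 19.9 against 1.68, the lowest ratio of the list at 43.2 (9.52 to 514). Rangap1, which activates the Ran GTPase, had 139 antisense reads against 1.33.

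Pseudogenes of such genes stood with them, named by the rule of highest ratio. Gm7162 had 805 sense reads against 25.5, a ratio of 115 (77.7 to 178). Gm16574 had 592 antisense reads against 15.8, a ratio of 136 (83.0 to 241). Kifc1, a mitotic kinesin gene, and its relative Kifc5b had ratios of 174 (55.2 to 962) and 126 (37.6 to 791) on the sense strand. The related genes C130026I21Rik, Sp140 and A530032D15Rik shared reads and had ratios of 135, 138 and 137 on the antisense strand.

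Reads of the siRNA list had the lengths of Dicer products in the 19-24 nt library. Of 1342 uniquely placed reads sized against transcript and linker, 25.3% were 21 nt and 55.2% were 22 nt long, and 91.3% lay between 21 and 23 nt. All coding, pseudogene and long non-coding reads of that library also peaked at 22 nt, with 56.4% at 21 or 22 nt. In the 24-30 nt library 60.3% of the latter reads could not be sized, and 92.2% of the 14320 sized ones followed the transcript to base 26. Of the 51 siRNA list reads there, 24 could be sized and 45.8% of these were 21 to 23 nt long.

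Several genes higher in the 24-30 nt library were read at sequences with many places. Reads matching over 10 places made up 49.9% of the reads outside microRNA, tRNA and rRNA in the 24-30 nt library and 34.2% in the shorter window. Noct, a clock-regulated gene, had 243 sense reads against 2196, a ratio of 0.403 (0.352 to 0.461), with 13.3% of the latter uniquely placed. Vmn2r59, a pheromone receptor gene, had 48.3 antisense reads against 845, a ratio of 0.209 (0.153 to 0.279). Cdk14, a cyclin-dependent kinase gene, had 2.84 sense reads against 254, and 97.6% of the latter were 1 sequence.

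D10Wsu102e was the largest coding feature in both libraries and nearly even between them. It had 1972 sense reads against 8889, a ratio of 0.808 (0.770 to 0.849), and 1268 antisense reads against 4502, a ratio of 1.03 (0.964 to 1.09). The share starting with U was 58.9% and 80.6% on the sense strand, and the share of antisense reads with A at base 10 was 22.6% in the 19-24 nt library and 58.9% in the longer window. The same gene thus gave reads of unlike composition in the 2 windows. Khdc3, an oocyte maternal effect gene, had 9 sense reads against 113, of which 92.04% started with U and all were uniquely placed.

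The first and the tenth base differed between the libraries in the same way overall. Outside microRNA, tRNA and rRNA, 52.7% of reads of the 19-24 nt library and 71.8% of those of the longer window started with U. Leaving out the remaining small RNA genes as well, this was 53.5% (53.1 to 53.9) and 75.2% (75.00 to 75.4), and A stood at base 10 in 24.8% and 53.7%. Among reads with over 10 places that did not start with U, A at base 10 reached 72.6% (72.0 to 73.2) in the 24-30 nt library and 26.4% (25.4 to 27.4) in the shorter window. The first base was U most often in pseudogene antisense reads, with 87.4% in the 24-30 nt library and 61.6% in the shorter window.

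These shares rested on abundant sequences. Among distinct sequences read once, 43.2% and 41.9% started with U. The shares were 54.2% and 64.5% at 2 to 9 reads, and 66.0% and 72.4% at 10 to 99 reads. At 100 reads or more they were 76.9% of 13 sequences and 84.5% of 297. A at base 10 stayed between 23.1% and 25.6% in the 19-24 nt library, while in the longer window it went from 30.7% of sequences read once to 62.6% of those with 100 reads or more. The first U thus moved with abundance in both libraries and the tenth A in the longer one.

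**Figure D4:**
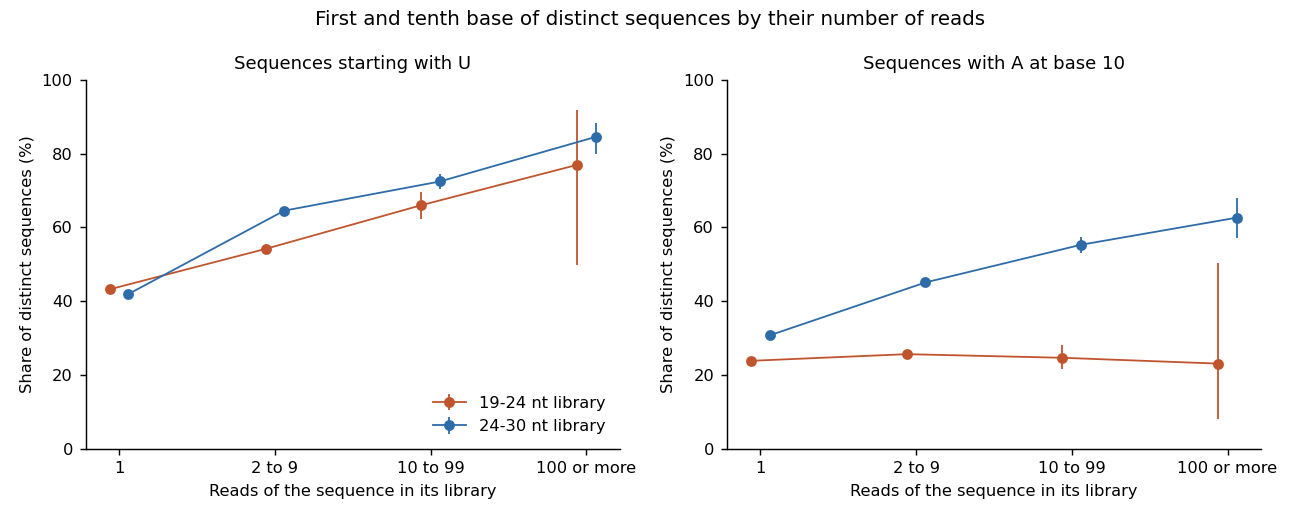
Share of distinct sequences from outside all small RNA genes that start with U (left) or have A at base 10 (right), by the number of reads of the sequence in its library, with 95% Wilson intervals. Both lines climb on the left, and on the right the 24-30 nt library (blue) climbs from 30.7% to 62.6% while the 19-24 nt library (orange) stays between 23.1% and 25.6%.

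Opposite-strand reads of the 24-30 nt library overlapped by 10 nt far more often than by other lengths. Among distinct 5′ ends of uniquely placed reads, 160 of 1029 pairs with an overlap in the range counted (15.6%, 13.5 to 17.9) overlapped by 10 nt, against 40 at 9 nt and 59 at 11 nt. In the 19-24 nt library 71 of 2052 pairs (3.46%, 2.75 to 4.34) did, the same number as at 9 nt. Over all places and weighted by reads, 62.8% of pairs in the 24-30 nt library and 2.19% in the shorter window overlapped by 10 nt.

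Most long reads outside small RNA genes had such a partner, though most of their distinct sequences did not. In the 24-30 nt library 65.6% of reads had another read of the library whose 5′ end overlapped theirs by 10 nt, against 20.7% to 28.8% for overlaps of 8, 9, 11 or 12 nt. In the 19-24 nt library this was 21.3%, against 17.5% to 19.6%. Of 36646 distinct sequences of the 24-30 nt library 19.5% had a partner at 10 nt, against 8.28% to 10.3% at the other 4 lengths. Of 26253 in the 19-24 nt library 11.4% did, against 10.2% to 11.7%. The repeat pair printed above had 952 and 865 reads in the 24-30 nt library, at 63 and 64 places of which they share 56, and 9 and 1 reads in the shorter window. Of the 20 leading pairs 14 had U at the start of both reads and 6 at the start of 1. The single-place pair in D10Wsu102e had 76 and 43 reads, against 0 and 5.

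A Dicer duplex of 21 nt leaves an overlap of 19 nt and one of 22 nt an overlap of 20 nt. The former made up 4.24% (3.45 to 5.20) of distinct pairs in the 19-24 nt library and 3.499% (2.54 to 4.805) in the longer window, and these intervals overlap. Weighted over all places it made up 6.37% and 0.582%, beside 7.13% and 1.29% at 4 nt and 5.52% and 0.236% at 25 nt. The 62.8% of weighted pairs at 10 nt in the longer window lowers the share of every other length there. The overlap of 20 nt had 105 distinct pairs in the 19-24 nt library, the most of any length there but close to the 98 at 18 and at 21 nt. That was 5.12% of pairs, against 3.89% in the longer window, with intervals of 4.245 to 6.16 and 2.87 to 5.25 that overlap. Weighted, it made up 4.09% and 0.642%.

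**Figure D5:**
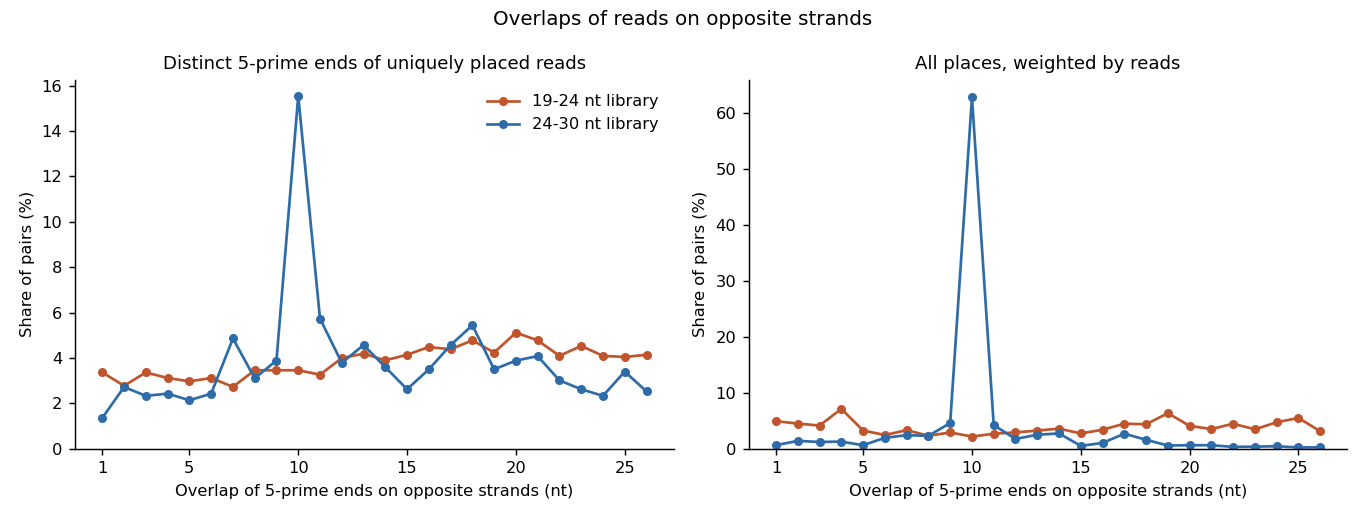
Share of opposite-strand pairs of 5′ ends by the length of their overlap from 1 to 26 nt, for distinct ends of uniquely placed reads (left) and for all places weighted by reads (right), in the 19-24 nt library (orange) and the 24-30 nt library (blue). The blue line has 1 peak, at 10 nt, of 15.6% on the left and 62.8% on the right, and the orange line has none at 10 nt.

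The antisense share of reads on coding exons was the same in the 2 libraries when reads were weighted over their places, at 38.8% (38.3 to 39.3) and 38.6% (38.3 to 39.0). For uniquely placed reads it was 26.9% (26.2 to 27.7) in the 19-24 nt library and 13.3% (12.9 to 13.7) in the longer window. Counting each distinct sequence once per insert length gave 34.5% and 22.4%. The 2 libraries shared 5088 sequences outside microRNA, tRNA and rRNA, 17.5% of the 29050 in the 19-24 nt library and 13.3% of the 38298 in the longer window. The shared sequences held 37.3% and 58.3% of the reads.

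Fragments of cell type marker transcripts were few in both. The 29 oocyte markers had 63.9 and 205 sense reads, and the 19 granulosa and cumulus markers 54.2 and 147. Scaled to RPM of reads outside microRNA, tRNA and rRNA, the levels were 1126 and 991 for oocyte markers and 955 and 712 for granulosa markers. Blood markers had 1 and 0 reads. Khdc3 alone held 113 of the oocyte marker reads of the longer window, and without it the levels were 967.5 and 444 RPM. Among oocyte markers Gdf9, a growth factor of the oocyte, had 3 and 8 reads, and among granulosa markers Inhba, an activin subunit, had 14 and 24.5. Short RNA reads measure fragments, and the part of follicle cells in any result above was not tested.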

How the data were processed

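The deposited files hold sequencing reads with their counts left to be made: 26 nt reads of lanes 8 and 7, per the file headers, with the 3′ linker still on. They are in no normalized unit, and no aligner is given in the sources used here. The linker was read from the reads, and needed 4 called bases. Base 21 was masked. Inserts under 18 nt and low-complexity reads were dropped.

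The first 20 nt were matched without mismatch to GENCODE M21 transcripts on both strands, and a read counted as 1 over its places, up to 1000. Places inside nuclear tRNA or rRNA genes of RefSeq, on either strand, took that class first. The other places took microRNA, then tRNA, rRNA, other small RNA, sense and antisense. Reads matching several of Lars2, AA474408 and Gm15564 were set with rRNA. RefSeq gave mature forms for 152 of 168 hairpins by symbol.

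Shares have 95% Wilson intervals and ratios conditional binomial intervals, from counting alone. PCR reads without molecular identifiers are not independent molecules. A call was a ratio over 2, with counts under 3 raised to 3 to rank. Named genes were the 5 most abundant and the 5 highest and lowest in ratio per class, plus list members with 10 reads. Members and lists were chosen with earlier results of these data known. Python 3.11.15, NumPy 2.4.6, SciPy 1.17.1, pandas 2.3.3 and matplotlib 3.10.9 were used, and sizing and ratios were tested on simulated data.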

Additional observations from a re-analysis of the deposited data

How the results depend on the processing

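Ratios below are 19-24 nt over 24-30 nt, and distinct sequences are counted once per insert length. The microRNA ratio of 11.7 was 8.95 with uniquely matching reads, 11.1 with 1 class per read, 3.49 with distinct sequences and 22.4 over all usable reads. Coding antisense, 1.17, was 2.11, 2.35 and 1.39 in the first 3 of these, 0.356 over all matched reads and 0.540 without the A box rule. Coding sense, 1.34, was 1.16, 0.968, 0.817, 0.406 and 1.78. The ratio of shares starting with U, 0.734, was 0.989 over all usable reads, 0.867 for unique and 0.983 for distinct ones. The antisense share ratio, 1.00, was 2.02 and 1.54. The median hairpin ratio, 35.8, was 3.05 per microRNA read, 19.0 at 20 reads and 3.28 for distinct sequences. Gene features higher in the 19-24 nt library, 126, were 75 per matched read, 319 at 20 reads, 32 at 200 reads, 32 unique and 66 distinct. Those higher in the 24-30 nt library, 512, were 812, 809, 168, 106 and 18. The 10 nt overlap ratio, 0.223, was 0.0845 for ends with 2 reads and 0.0348 weighted. That at 19 nt, 1.21, was 2.34 and 10.9. The tailed share, 32.8%, was 19.2% with Mir541 and Mir351 and 14.6% where all 3 bases had to differ. The A box, rRNA-like, weighted overlap and tail alternatives, and the values without mt-Ts2 or Khdc3, were chosen after seeing the data. Beyond the effect of each choice's own construction, the cause was not tested.

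No paired analysis was possible because each window has 1 library. Reads end at base 26, so lengths from 26 to 30 nt were not measured. A gene at 0 reads is not shown to be absent. The ranking floor of 3 reads stands for 8.73 RPM of matched reads in the 24-30 nt library and 9.56 RPM in the 19-24 nt library. Scaled to reads outside microRNA, tRNA and rRNA, as genes were compared, it stands for 14.5 and 52.9 RPM.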
